A study of Ovis aries with 7 samples.

Results

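Astrocytes take up glutamate, share ions and metabolites through gap junctions, move bicarbonate and keep their shape with intermediate filaments. Transcripts of 5 genes that serve these tasks, SLC1A2, GJA1, SLC4A4, GFAP and VIM, were measured in the hypothalamus of fetal sheep after transient hypoxia. Their probes were found by the gene name or description in the scanner files. SLC1A2 stood there only under the older names EAAT2 and GLT-1, and GJA1 also as CONNEXIN 43, and these were included. This gave 12 of the 15008 distinct probes on the array: 3 for SLC1A2, 4 for GJA1, 1 for SLC4A4, 2 for GFAP and 2 for VIM. The genes are 5 of the 968 that could be named on the array. Where probes share a name, a and b mark the brighter and the dimmer probe.

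Hypothalamic RNA came from 3 hypoxia fetuses and 4 control fetuses, all late in gestation, carrying chronic catheters and matched in age, with 1 array each. In the hypoxia group the inspired gas of the ewe was low in oxygen for 30 min, and 30 min of normal oxygen followed. The control group had normal oxygen throughout the same 60 min. The tissue was taken at 60 min, so it shows the state after 30 min of recovery and not during the hypoxia itself. The levels are of the whole region, and in such tissue fewer cells of a type and less RNA per cell cannot be told apart.

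Astrocytes clear synaptic glutamate mainly through SLC1A2 and SLC1A3, and the uptake is driven by the sodium gradient across the membrane. GJA1 forms the gap junctions that join astrocytes into a network, and SLC4A4 carries sodium and bicarbonate together across the membrane and so links uptake and activity to pH. GFAP and VIM polymerise into filaments, of which GFAP marks mature and reactive astrocytes, while VIM is also made by radial glia, tanycytes, blood vessels and fibroblasts. In the developing brain vimentin precedes GFAP in the glial lineage.

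Overlapping probes are close to repeat measurements of 1 stretch of a transcript, and probes that do not overlap are separate views of it. The 60-base probes are given 5′ to 3′ to show which is which, with the bases that a pair shares in capitals.
EAAT2 a: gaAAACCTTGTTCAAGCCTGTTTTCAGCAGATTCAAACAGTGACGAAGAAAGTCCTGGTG
EAAT2 b: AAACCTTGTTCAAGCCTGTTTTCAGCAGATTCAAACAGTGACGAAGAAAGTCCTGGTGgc
GLT-1: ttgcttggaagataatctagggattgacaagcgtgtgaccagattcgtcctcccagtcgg
GJA1 a: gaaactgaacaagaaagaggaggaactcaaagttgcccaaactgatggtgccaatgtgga
GJA1 b: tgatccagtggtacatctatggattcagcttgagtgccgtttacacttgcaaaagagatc
SLC4A4: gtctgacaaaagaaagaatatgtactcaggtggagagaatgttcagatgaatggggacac
VIM a: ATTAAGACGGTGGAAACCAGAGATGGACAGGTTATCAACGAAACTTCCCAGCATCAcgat
VIM b: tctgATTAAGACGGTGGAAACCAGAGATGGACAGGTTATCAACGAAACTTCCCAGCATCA

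The EAAT2 probes share 58 bases and the VIM probes 56, so neither pair gives independent evidence. GJA1 a and b start 200 bases apart on 1 transcript and share none. The GFAP probes share 57 bases and the CONNEXIN 43 probes 20, and these 4 probes are named only. Against all probes not named for the same gene, the longest identical stretch was 12 bases for 8 of the probes and 13 bases for the other 4.

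All 12 probes were well above background on all 7 arrays and none was saturated. The hypothalamic genes OXT, POMC, NPY, AGRP, GHRH, SST, GAL and ISL1 and the astrocyte genes AQP4 and SLC1A3 were each well above background on 7 of 7 arrays too. The level used throughout is the log2 processed intensity minus the 75th percentile of that array, so that a probe at 0 is as bright as the spot at that percentile. Over the arrays this percentile lay between 2024 and 2908 intensity units, and 77.2% to 86.4% of spots were well above background. All hypoxia arrays were on slide 1, while the controls were split over slide 2 (replicates 1 and 2) and slide 3 (replicates 3 and 4). Slide and hypoxia cannot be told apart, so the difference between the control slides is given beside each gene as a measure of how far arrays of 1 group lie apart.

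**Figure D1:**
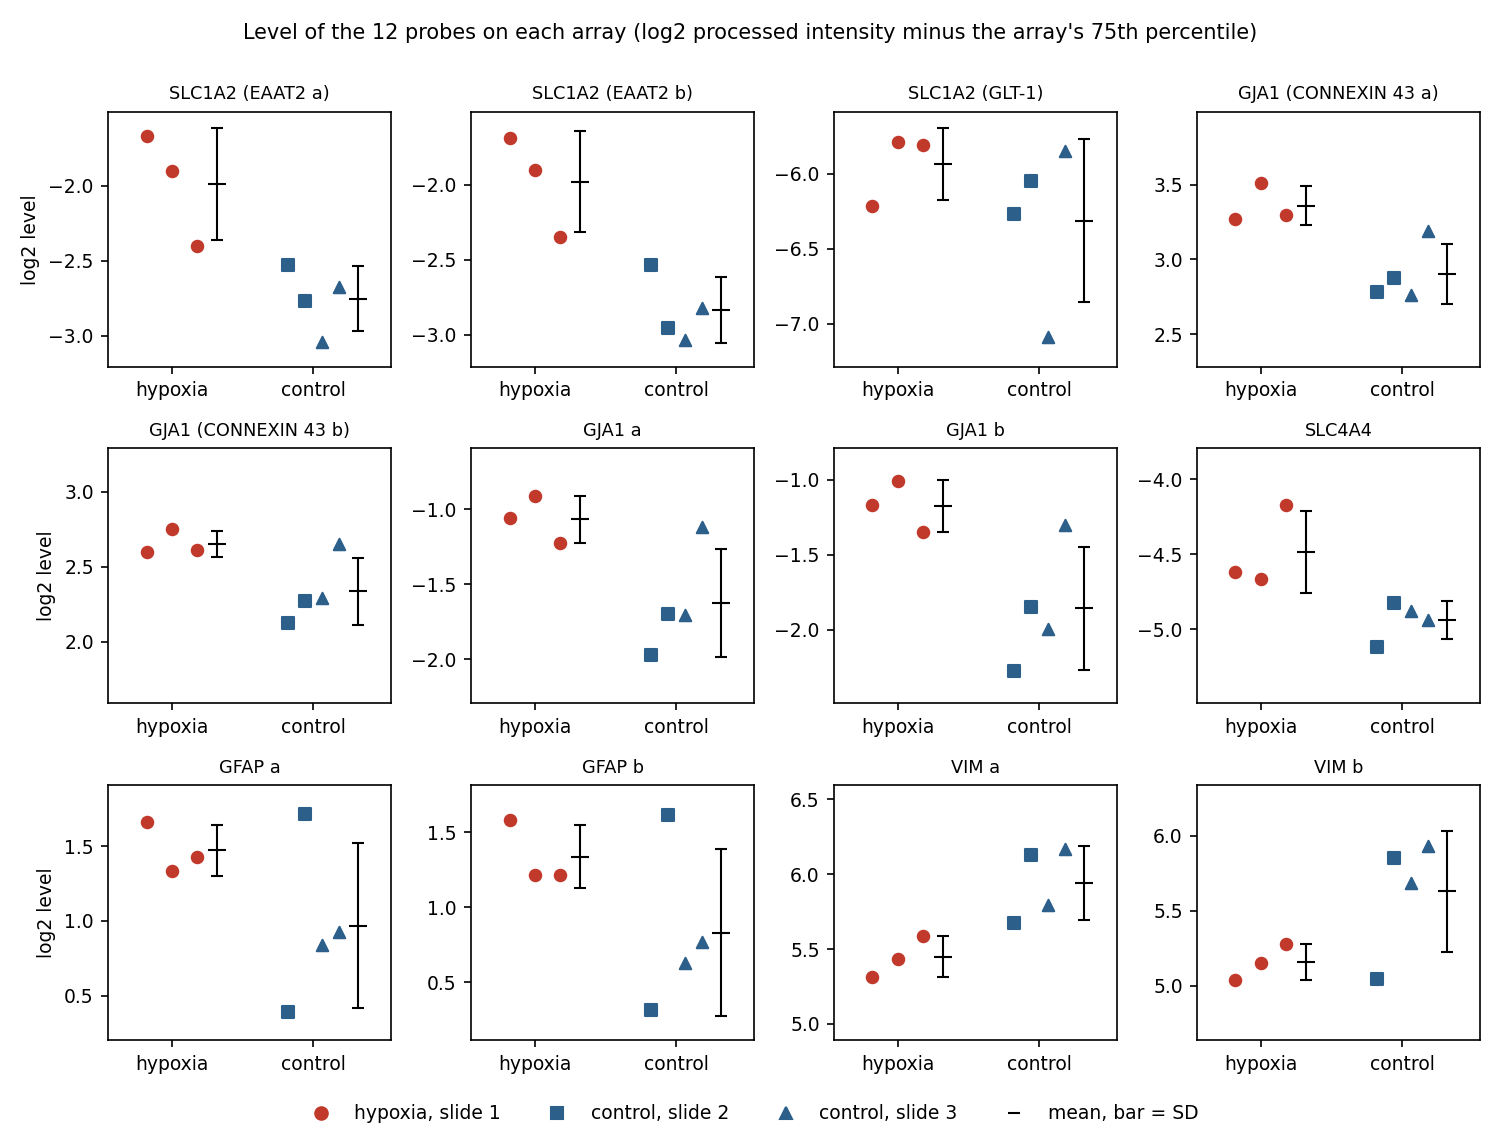
Level of each of the 12 probes (log2 processed intensity minus the array's 75th percentile) on the 3 hypoxia arrays, left, and the 4 control arrays, right, with mean and SD beside the points and a shape for each slide. The panels have different ranges, each spanning 1.7 log2 units. The hypoxia points lie apart from the control points for both EAAT2 probes, CONNEXIN 43 a, SLC4A4 and VIM a.

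Across the 5 genes, SLC1A2, GJA1, SLC4A4 and GFAP had higher mean levels in hypoxia and VIM a lower one, and none of the differences passed the test over all probes. In limma, 0 of the 12 probes had an adjusted p under 0.05, and of all tested probes 0.0157% did (2 of 12712). At an unadjusted p under 0.05 there were 7 of the 12, both EAAT2 probes, CONNEXIN 43 a, both GJA1 probes, SLC4A4 and VIM a, where 15.7% of all tested probes were. Of these 7, 6 were higher in hypoxia and 1 lower, beside 8.75% and 6.91% of all tested probes. In 5 of the 12 the 3 hypoxia values lay entirely outside the 4 control values, 4 above and 1 below, beside 16.2% of all tested probes (8.76% above and 7.46% below). Without control replicate 4 this count was 8, beside 23% of all tested probes in that fit. It was 3 with the unscaled deposited values, beside 7.87%, and 4 with normexp background correction, beside 13.8%. The median difference over the 12 probes was 0.48 on the log2 scale, beside 0.03 over all tested probes, and 10 of the 12 were higher in hypoxia beside 54.7% of all. The genes were chosen with earlier results of these arrays known and several probes overlap, so these counts describe the probes and test nothing.

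SLC1A2, the main glutamate transporter of astrocytes, had the largest difference of the 5 genes. The processed intensity of EAAT2 a was 815, 589 and 445 on hypoxia replicates 1 to 3, against 358, 297, 353 and 371 on control replicates 1 to 4. Its level was -1.67, -1.90 and -2.40 on the hypoxia arrays, against -2.53, -2.77, -3.04 and -2.68 on the control arrays. All 3 hypoxia values lay above all 4 control values, but hypoxia replicate 3 was nearer to the highest control than to the other hypoxia arrays, with a gap of 0.13 between the groups. The level averaged -1.99 ± 0.37 in hypoxia (SD, n = 3) and -2.75 ± 0.22 in control (SD, n = 4), a 1.70-fold difference with a 95% interval of 1.23 to 2.35. On the log2 scale the difference was 0.76 (SE 0.20, adjusted p = 0.185).

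The overlapping EAAT2 b had levels of -1.69, -1.90 and -2.35 in hypoxia, against -2.54, -2.96, -3.04 and -2.82 in control, and its groups did not overlap either. Its log2 difference of 0.86 (SE 0.19, adjusted p = 0.151) had the lowest adjusted p of the 12 probes. Among all tested probes it ranked 197th by p, and EAAT2 a 390th. The difference between the control slides was smaller, slide 3 minus slide 2 being -0.21 for EAAT2 a and -0.18 for EAAT2 b. Against slide 2 alone EAAT2 a stood at 0.66, and against slide 3 alone at 0.87.

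GLT-1, the separate probe for the same transporter, did not separate the groups. Its processed intensity was 35.0, 39.9 and 41.9 in hypoxia, against 26.7, 30.7, 21.4 and 41.2 in control. Its level was -6.21, -5.79 and -5.81 in hypoxia, against -6.27, -6.04, -7.09 and -5.85 in control. In level, control replicates 2 and 4 lay among the hypoxia values. The log2 difference was 0.38 (SE 0.29, adjusted p = 0.547), with a 95% interval of -0.30 to 1.06 that includes the values of both EAAT2 probes. It was 0.12 without control replicate 3 and 0.53 without control replicate 4. The scanner software's error estimate reached 20.3% of the signal for this dim probe.

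Other genes of glutamate handling did not share one direction. Of 13 listed genes 4 were measured, and of the 3 besides SLC1A2, 1 was higher and 2 were lower in hypoxia, with a median log2 difference of -0.08 and 0 past the adjusted threshold. Without 1 array this median ran from -0.20 to 0.01. SLC1A3, the other glutamate transporter of astrocytes, had levels of 0.35, -0.14 and 0.24 in hypoxia, against -0.09, 0.28, -0.51 and -0.02 in control. Groups overlapped here, and the log2 difference was 0.23 (SE 0.21, adjusted p = 0.602). It ran from 0.09 to 0.38 without 1 array, and its other probe gave 0.21. GLUD1, the glutamate dehydrogenase of mitochondria, had levels of 2.85, 2.70 and 2.77 in hypoxia, against 3.24, 3.41, 3.11 and 3.14 in control. Its hypoxia values were all below the control values, at a log2 difference of -0.45 (SE 0.11, adjusted p = 0.175). Its remaining probes gave -0.40 and -0.36. SLC1A1, a transporter found mainly on neurons, stood at -0.08 (SE 0.16, adjusted p = 0.829) and turned direction without hypoxia replicate 2.

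GJA1, the connexin that builds most gap junctions between astrocytes, had a positive difference on each of its 4 probes. CONNEXIN 43 a had processed intensities of 25054, 25013 and 23111 in hypoxia, against 14204, 14850, 19740 and 21659 in control. The level was 3.27, 3.51 and 3.30 in hypoxia, against 2.78, 2.88, 2.76 and 3.19 in control. The hypoxia values lay above the control values, with control replicate 4 only 0.08 below the lowest of them. The means were 3.36 ± 0.13 in hypoxia (SD, n = 3) and 2.90 ± 0.20 in control (SD, n = 4), a 1.37-fold difference (log2 0.46, SE 0.14, adjusted p = 0.219). The 95% interval of the log2 difference ran from 0.14 to 0.78.

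On the other 3 probes of GJA1 control replicate 4 overlapped with the hypoxia arrays. CONNEXIN 43 b had levels of 2.60, 2.75 and 2.61 in hypoxia, against 2.13, 2.27, 2.29 and 2.65 in control. GJA1 a had levels of -1.06, -0.91 and -1.22 in hypoxia, against -1.97, -1.70, -1.71 and -1.12 in control. GJA1 b had levels of -1.17, -1.01 and -1.35 in hypoxia, against -2.28, -1.85, -2.00 and -1.30 in control. In each of these 3 probes control replicate 4 was the highest control and the remaining controls lay below every hypoxia array. The log2 differences were 0.32 (SE 0.14, adjusted p = 0.334) for CONNEXIN 43 b, 0.56 (SE 0.20, adjusted p = 0.270) for GJA1 a and 0.68 (SE 0.23, adjusted p = 0.246) for GJA1 b.

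The control slides also differed in GJA1, with slide 3 the higher on all 4 probes. Slide 3 minus slide 2 was 0.15 and 0.27 for CONNEXIN 43 a and b and 0.42 for both GJA1 a and GJA1 b, beside a median absolute value of 0.178 over all tested probes. Against slide 2 alone GJA1 b stood at 0.89, and against slide 3 alone at 0.47. CONNEXIN 43 b stood at 0.45 against slide 2 and at 0.18 against slide 3.

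The other connexin and junction genes had no positive difference on the brightest probe of each. Of 12 listed genes 6 were measured, and all 5 besides GJA1 were lower in hypoxia, with a median log2 difference of -0.15 and 0 past the adjusted threshold. Without 1 array 4 or 5 of these 5 were lower, and the median ran from -0.30 to -0.06. With normexp background correction, and against control slide 2 alone, 3 of the 5 were lower. GJA4, a connexin of arteries, had levels of -2.70, -2.13 and -1.99 in hypoxia, against -1.79, -1.77, -1.69 and -2.01 in control (log2 difference -0.46, SE 0.18, adjusted p = 0.297). Hypoxia replicate 3 lay within the range of the controls, and the difference was -0.25 without hypoxia replicate 1. GJB2, a connexin of the meninges and of some astrocytes, stood at -0.24 (SE 0.18, adjusted p = 0.549), and at -0.12 without control replicate 1. The other GJB2 probes ran from -0.61 to -0.34, and the other GJA4 probe gave -0.61. CAV1, which forms caveolae, GJB1, the connexin of oligodendrocytes, and TJP1, a tight junction scaffold, turned direction under at least 1 alternative setting. The other CAV1 probe gave 0.55, against -0.08 for the brighter one. For TJP1 the other probe gave 0.20, against -0.05 for the brighter one, which was well above background on 6 of 7 arrays.

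SLC4A4, the sodium bicarbonate cotransporter, has a single probe, with processed intensities of 105, 86.7 and 130 in hypoxia, against 59.5, 71.5, 98.7 and 77.3 in control. Before scaling, control replicate 3 lay above hypoxia replicate 2. After scaling the levels were -4.62, -4.67 and -4.17 in hypoxia, against -5.12, -4.82, -4.88 and -4.94 in control, and the groups did not overlap. The means were -4.49 ± 0.27 in hypoxia (SD, n = 3) and -4.94 ± 0.13 in control (SD, n = 4). The log2 difference was 0.45 (SE 0.15, adjusted p = 0.245), with a 95% interval of 0.10 to 0.80, and slide 3 minus slide 2 was 0.06. Hypoxia replicate 3 was the highest, and without it the difference was 0.30.

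Among genes of ion and water transport the differences were positive, as for SLC4A4. Of 14 listed genes 3 were measured, SLC4A4 among them, and all 3 were higher in hypoxia, with a median log2 difference of 0.25 and 0 past the adjusted threshold. Against control slide 2 alone 2 of 3 were higher, and the median was 0.14 without control replicate 1. With SLC4A4 left out of the list, the median of the other 2 was 0.17, and the groups overlapped for both. AQP4, the water channel of astrocyte endfeet, had levels of 5.78, 5.63 and 5.90 in hypoxia, against 5.18, 5.72, 5.60 and 5.59 in control. Control replicate 2 overlapped with hypoxia, at a log2 difference of 0.25 (SE 0.15, adjusted p = 0.453), which was 0.13 without control replicate 1. ATP1B1, an ion pump subunit of neurons and glia, stood at 0.09 (SE 0.12, adjusted p = 0.712) and ran from 0.03 to 0.15 without 1 array. Against control slide 2 alone ATP1B1 was at -0.004.

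**Figure D2:**
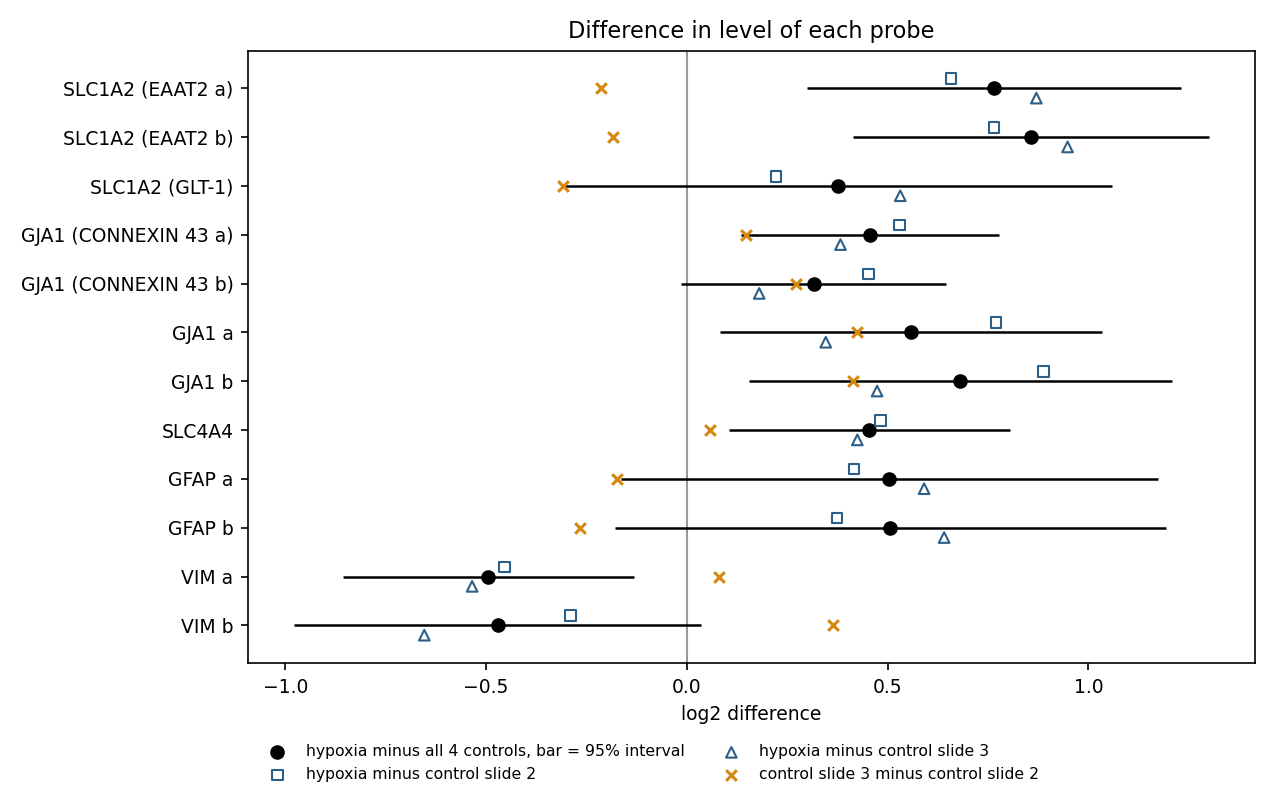
Log2 difference of each of the 12 probes: filled points, hypoxia minus all 4 controls, with 95% intervals; open squares and triangles, hypoxia minus control slide 2 or slide 3 alone; crosses, control slide 3 minus control slide 2. The 10 probes of SLC1A2, GJA1, SLC4A4 and GFAP are on the positive side against either slide and both VIM probes on the negative side, while the 95% intervals of GLT-1, CONNEXIN 43 b, both GFAP probes and VIM b include 0.

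GFAP, the filament protein of mature astrocytes, varied more among the controls than between the groups. GFAP a had processed intensities of 8205, 5531 and 6314 in hypoxia, against 2713, 6649, 5204 and 4503 in control. Its level was 1.66, 1.33 and 1.43 in hypoxia, against 0.40, 1.72, 0.84 and 0.92 in control. Control replicates 1 and 2, which share a slide, were the lowest and the highest of all 7 arrays, and the other controls lay below hypoxia. The SD was 0.17 among the hypoxia arrays and 0.55 among the control arrays. The log2 difference was 0.50 (SE 0.29, adjusted p = 0.420), with a 95% interval of -0.16 to 1.17. It was 0.31 without control replicate 1 and 0.75 without control replicate 2. GFAP b gave 0.51 (SE 0.29, adjusted p = 0.429), with levels of 1.58, 1.22 and 1.22 in hypoxia, against 0.31, 1.62, 0.63 and 0.77 in control. Slide 3 minus slide 2 was -0.17 for GFAP a and -0.27 for GFAP b, the mean of slide 2 being taken over the lowest and the highest array.

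VIM, the filament protein of radial glia, tanycytes and mesenchymal cells, was the one gene of the 5 with a lower level in hypoxia. VIM a had levels of 5.32, 5.44 and 5.59 in hypoxia, against 5.67, 6.13, 5.79 and 6.17 in control. The hypoxia values lay below all controls, with a gap of 0.08 to control replicate 1. The means were 5.45 ± 0.14 in hypoxia (SD, n = 3) and 5.94 ± 0.25 in control (SD, n = 4), a 1.41-fold lower level (log2 difference -0.49, SE 0.16, adjusted p = 0.235). The 95% interval of the log2 difference ran from -0.86 to -0.13, and slide 3 minus slide 2 was 0.08. In processed intensity, before scaling, the values were 103412, 95158 and 113114 in hypoxia, against 105164, 141665, 161377 and 170820 in control, and hypoxia replicate 3 lay above control replicate 1.

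VIM b had levels of 5.04, 5.15 and 5.28 in hypoxia, against 5.05, 5.85, 5.69 and 5.93 in control. Control replicate 1 lay among the hypoxia values here, and the log2 difference was -0.47 (SE 0.22, adjusted p = 0.345). The control slides differed more in this probe, slide 3 minus slide 2 being 0.36, and the difference was -0.29 against slide 2 alone and -0.65 against slide 3 alone. Although VIM a and VIM b share 56 bases, the difference between them varied more over the 7 arrays (SD 0.16) than that of any other pair. The SD was 0.07 without control replicate 1, the array where VIM b lay farthest from VIM a. For the EAAT2, CONNEXIN 43, GJA1 and GFAP pairs this SD was 0.09, 0.10, 0.09 and 0.06.

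The filament genes were divided. Of 16 listed genes 4 were measured, GFAP and NEFH higher and VIM and LMNB1 lower in hypoxia, with a median log2 difference of 0.02, which ran from -0.09 to 0.02 without 1 array, and 0 past the adjusted threshold. NEFH, the heavy neurofilament of neurons, had levels of -2.88, -2.47 and -2.66 in hypoxia, against -2.43, -3.37, -3.42 and -3.46 in control. Control replicate 1 was the highest of all arrays and the other controls the lowest (log2 difference 0.50, SE 0.27, adjusted p = 0.397). LMNB1, a lamin of the nuclear envelope, had one of -0.47 (SE 0.19, adjusted p = 0.307), while its second probe gave -0.58.

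Among markers of other cells that make VIM, those of meninges and fibroblasts had lower mean levels in hypoxia too. All 11 measured genes of 15 meningeal and fibroblast markers were lower, with a median log2 difference of -0.57 and 0 past the adjusted threshold, and 10 of the 11 were well above background on all arrays. The mean level of these genes, each relative to its own mean over the arrays, ran from -0.79 to -0.01 on the hypoxia arrays, against -0.27 to 0.70 on the control arrays. Hypoxia replicate 1 was the lowest and control replicate 4 the highest, as for VIM a, and the groups overlapped. The list stood at 0.70 on control replicate 4 and at 0.38 on control replicate 3. The value on control replicate 4 includes COL6A1, which was well above background on only 4 of 7 arrays. COL6A1 was at -4.00 there, against -6.91, -7.50 and -7.03 on control replicates 1 to 3. On control replicate 2 the list stood at -0.27, the lowest of the controls, while VIM a was at 6.13, above every hypoxia array. S100A4, a calcium-binding protein of fibroblasts, stood at -1.10 (SE 0.21, adjusted p = 0.116) and TIMP1, a protease inhibitor, at -0.74 (SE 0.15, adjusted p = 0.124). IGFBP2, a growth factor binding protein, stood at -0.93 (SE 0.28, adjusted p = 0.225) and the collagen COL3A1 at -0.82 (SE 0.34, adjusted p = 0.309), which was -0.45 without hypoxia replicate 1. The remaining COL3A1 probes ran from -0.70 to -0.21, while the second probes of TIMP1 and IGFBP2 gave -0.72 and -0.95. Without hypoxia replicate 1 the list's median was -0.27 with 9 of 11 lower, while VIM a stood at -0.43. Without control replicate 4 the median was -0.40, again with 9 of 11 lower, and VIM a stood at -0.42. Without hypoxia replicate 3 the median was -0.87 with 11 of 11 lower, and VIM a stood at -0.57. The 2 moved apart without control replicate 2, where the median was -0.80 with 10 of 11 lower and VIM a stood at -0.43. The part of these cells in the VIM difference was not tested.

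Of 16 endothelial and pericyte markers 6 were measured, 2 higher and 4 lower, with a median log2 difference of -0.27 and 0 past the adjusted threshold. Their mean relative level was -0.48 on hypoxia replicate 1 and 0.04 and 0.14 on hypoxia replicates 2 and 3, against -0.06 to 0.21 on the controls. Without hypoxia replicate 1 the median was -0.14. TEK and KDR, receptors of vessel growth factors, stood at -0.59 (SE 0.22, adjusted p = 0.279) and -0.51 (SE 0.24, adjusted p = 0.345). Both were smaller when hypoxia replicate 1 was left out, TEK at -0.32 and KDR at -0.25. The remaining probes ran from -0.48 to -0.14 for TEK and from -0.62 to -0.33 for KDR. TIE1 stood at -0.29 (SE 0.17, adjusted p = 0.425), and its other probe gave -0.42. The 2 higher genes were EDNRA at 0.30 (SE 0.15, adjusted p = 0.370) and FLT1 at 0.32 (SE 0.26, adjusted p = 0.557). The other EDNRA probe gave -0.21, and the other FLT1 probes ran from -0.53 to 0.94. PAX6, the single measured marker of 13 for tanycytes and radial glia, stood at 0.16 (SE 0.23, adjusted p = 0.761) and its sign turned under other settings. TTR, the single measured marker of ependyma and choroid plexus, ran from -1.77 to 3.49 in hypoxia, against 0.56 to 3.69 in control. Of 14 microglia and macrophage markers 4 were measured, 3 higher and 1 lower, with a median of 0.19 that was 0.06 without control replicate 1, and CD14, a lipopolysaccharide co-receptor, stood at 0.15 (SE 0.14, adjusted p = 0.619) and ran from 0.08 to 0.26 without 1 array. Of the pituitary markers 5 were measured, 4 higher and 1 lower, with a median of 0.39 that turned to -0.20 without control replicate 2. Their mean relative level varied widely within each group, from -1.12 to 0.64 in hypoxia and from -1.79 to 1.09 in control. LHB stood at 0.39 (SE 0.13, adjusted p = 0.250), and its groups did not overlap. Of the red cell markers 3 were measured, 1 higher and 2 lower, and the haemoglobin gene HBB stood at 0.67 (SE 0.69, adjusted p = 0.659). HBB was at 0.29 without control replicate 2 and at 1.35 without control replicate 4, and its sign turned against control slide 3 alone (-0.01). No marker listed for neurons or oligodendrocytes carried a name on the array, apart from NEFH among the filament genes. The part of these cell types in the differences of the 5 genes was not tested.

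**Figure D3:**
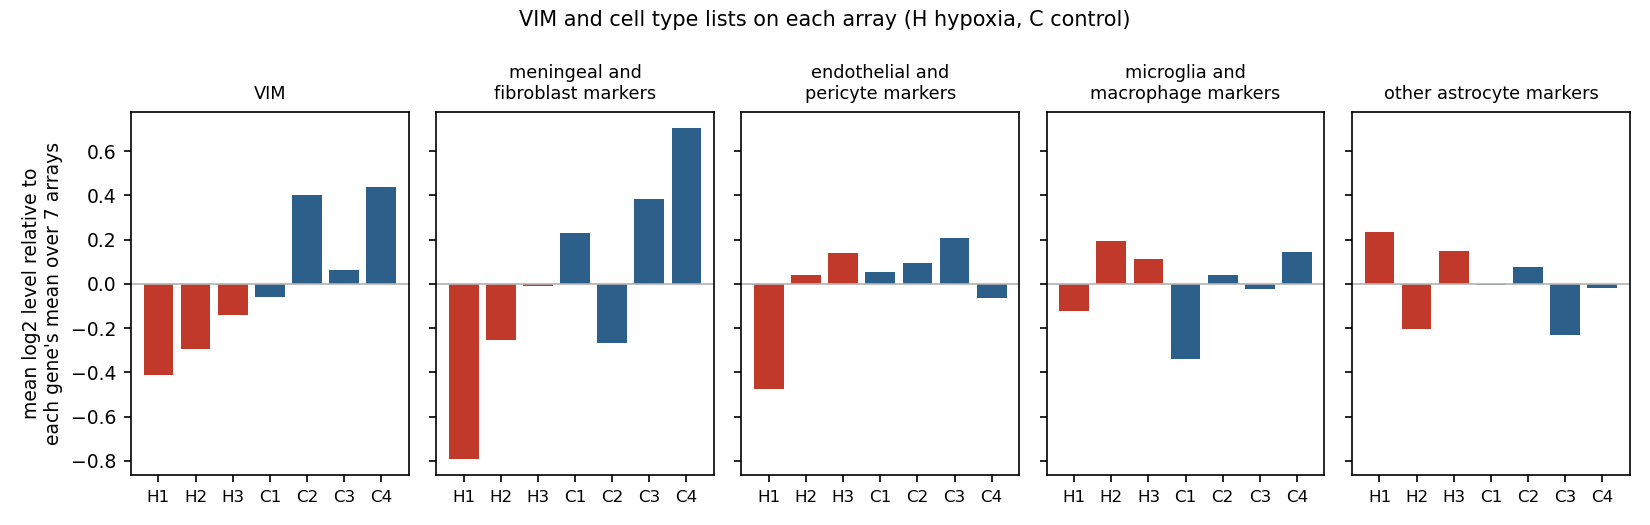
Level of VIM a and mean level of the genes of 4 marker lists on each array, each gene relative to its own mean over the 7 arrays (log2), with hypoxia replicates 1 to 3 left and control replicates 1 to 4 right. VIM a and the mean of the 11 meningeal and fibroblast genes are lowest on hypoxia replicate 1 and highest on control replicate 4. On control replicate 4 this mean includes the dim COL6A1, at a level of -4.00 there. On control replicate 2 VIM a is above its mean and these 11 genes are below theirs. The endothelial genes are low on hypoxia replicate 1 alone and the microglia and other astrocyte genes overlap between the groups.

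Of 27 listed astrocyte markers beyond the 5 genes 5 were measured, 3 higher and 2 lower, with a median log2 difference of 0.23 and 0 past the adjusted threshold. Without 1 array the median ran from 0.09 (without control replicate 3, 3 of 5 higher) to 0.32 (without hypoxia replicate 2, 5 of 5 higher). MT3, a zinc-binding metallothionein of astrocytes, had levels of 5.10, 4.91 and 4.76 in hypoxia, against 4.63, 4.65, 4.20 and 4.81 in control. Control replicate 4 overlapped with hypoxia (log2 difference 0.35, SE 0.17, adjusted p = 0.353), and the other probe gave 0.42. MT3 stood at 0.22 without control replicate 3. FGFR3, a growth factor receptor of glia, stood at -0.29 (SE 0.25, adjusted p = 0.604) and CPE, a peptide-processing enzyme also of neurons, at -0.03 (SE 0.13, adjusted p = 0.943). Both turned direction without hypoxia replicate 2, FGFR3 to 0.02 and CPE to 0.10, and the other FGFR3 probe gave 0.07.

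Genes listed for reactive astrocytes were divided in direction. Of 23 listed 10 were measured, 4 higher and 6 lower, with a median log2 difference of -0.15 that ran from -0.19 to -0.09 without 1 array, and 0 past the adjusted threshold. EDN1, which encodes endothelin 1 and is also made by vessels, had levels of -0.89, 0.14 and -0.50 in hypoxia, against -1.70, -1.55, -1.29 and -2.29 in control (log2 difference 1.29, SE 0.30, adjusted p = 0.163). CXCL10, an interferon-induced chemokine, had levels of -4.08, -3.36 and -4.24 in hypoxia, against -2.83, -3.03, -3.30 and -1.67 in control (log2 difference -1.18, SE 0.40, adjusted p = 0.250). The groups of EDN1 and CXCL10 did not overlap, in opposite directions. CHI3L1, a secreted glycoprotein of reactive astrocytes, stood at 0.62 (SE 0.40, adjusted p = 0.469), and at 0.39 without control replicate 1. TIMP1 of this list is given above.

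In the list for glucose, glycogen and lactate, 7 of 14 genes were measured, 1 higher and 6 lower in hypoxia, with a median log2 difference of -0.12 and 0 past the adjusted threshold. The median was -0.25 without hypoxia replicate 2, with 2 higher and 5 lower. HK1, the hexokinase of brain, had levels of -0.10, -0.02 and -0.04 in hypoxia, against 0.51, 0.32, 0.26 and 0.11 in control, and the groups did not overlap (log2 difference -0.36, SE 0.12, adjusted p = 0.243). PYGL and PYGM, glycogen phosphorylases, stood at -0.74 (SE 0.29, adjusted p = 0.288) and -0.33 (SE 0.21, adjusted p = 0.470). PYGM stood at -0.16 without control replicate 2 and at -0.18 without hypoxia replicate 1. SLC16A1, a lactate transporter, stood at 0.22 (SE 0.14, adjusted p = 0.466).

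**Figure D4:**
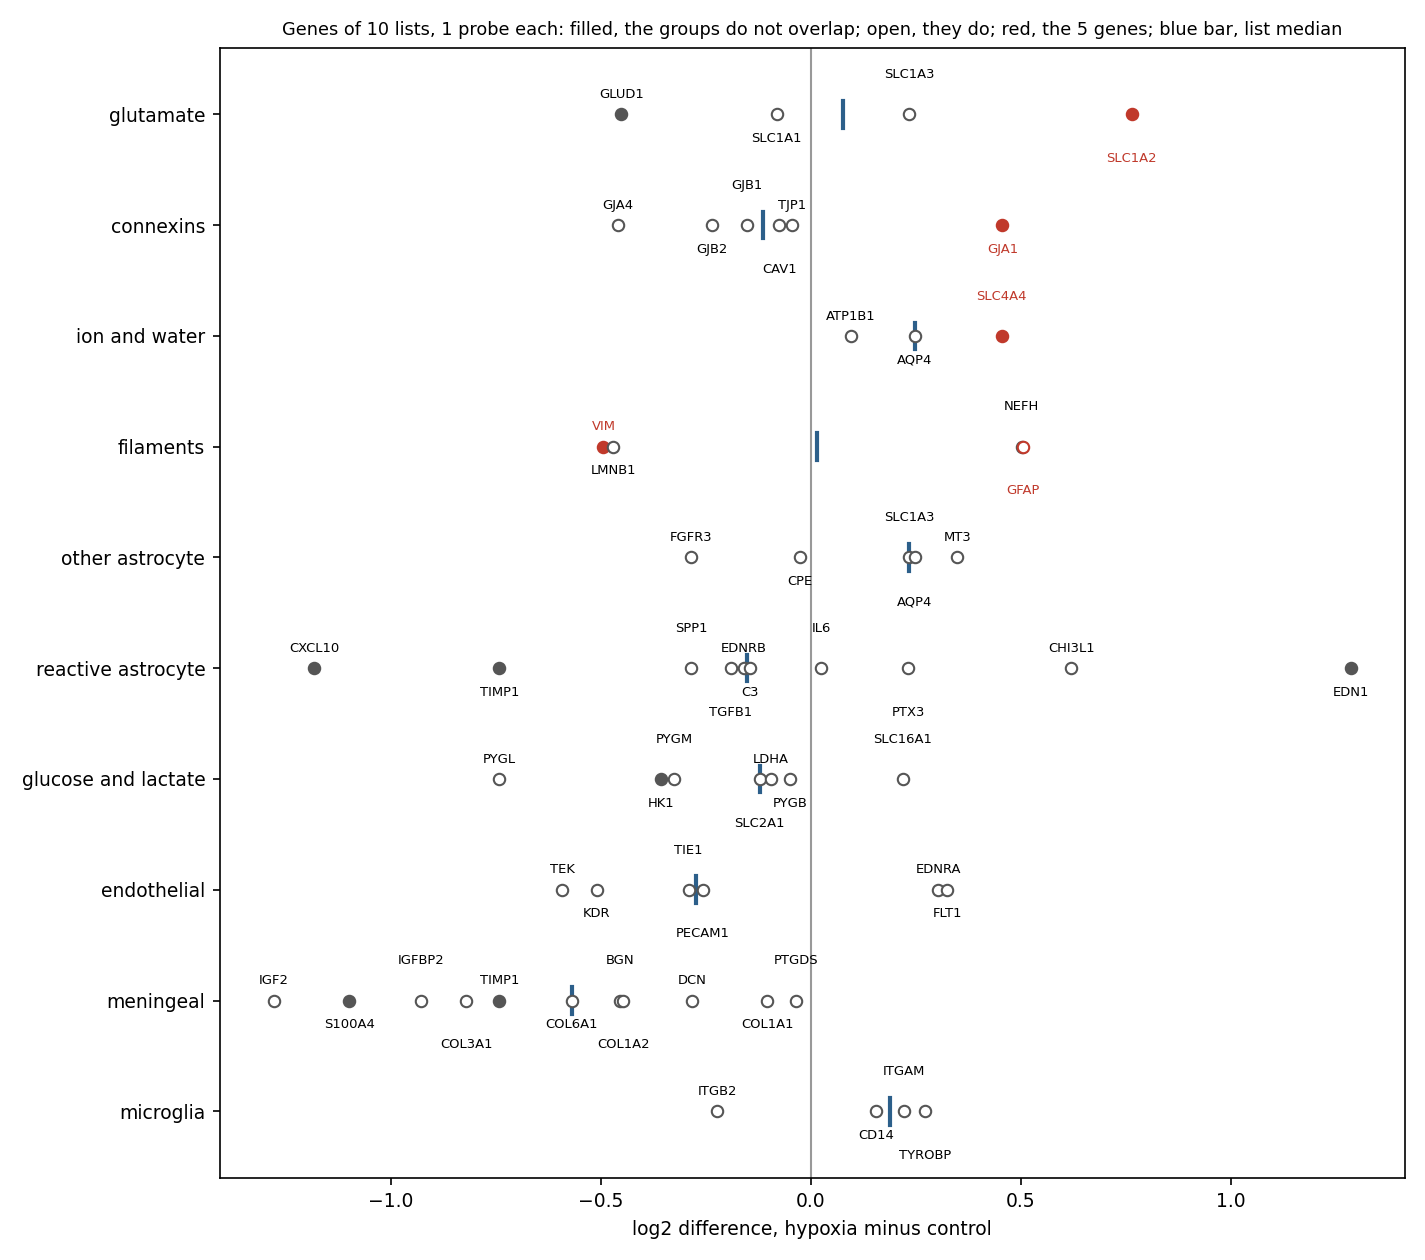
Log2 difference, hypoxia minus control, of the measured genes of 10 lists, with 1 probe per gene. Filled points mark groups that do not overlap, red the 5 genes and blue bars the median of each list. This median counts the 5 genes where listed, and is 0.25 for ion and water transport and -0.57 for meningeal and fibroblast markers.

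Among themselves the 5 genes differed in which fetuses were high. Likeness was measured as the root mean square difference of the log2 levels over the 7 arrays, after each gene was centred on its own mean, so that a lower value means a more similar pattern. This value also holds the difference between the groups, so it does not show the order of the fetuses alone. GJA1 and SLC4A4 were the most alike, at 0.24, followed by SLC1A2 and GJA1 at 0.30. A gene that did not vary over the arrays would stand at 0.27 from GJA1 and at 0.28 from SLC4A4, so these values show little likeness. SLC1A2 and VIM, whose group differences have opposite signs, were the least alike, at 0.71. Hypoxia replicate 1 was the highest hypoxia array for SLC1A2 and GFAP, hypoxia replicate 2 for GJA1 and hypoxia replicate 3 for SLC4A4 and VIM. Control replicate 4 was the highest control for GJA1 and VIM, control replicate 1 for SLC1A2 and control replicate 2 for GFAP and SLC4A4. The order of the fetuses was thus not common to the 5 genes.

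The named gene closest to SLC1A2 over the 7 arrays was MGLUR7, a metabotropic glutamate receptor, at 0.18, followed by the transcription factor CEBPB and the cytokine IL1B at 0.25 each, where the median over 835 named genes was 0.51. For GJA1 they were MGLUR1, CAMK2, which the array names only to the kinase family, and MGLUR6, at 0.10 each, with a median of 0.34. For SLC4A4 they were the innate immune receptor TLR4 at 0.08, and the vessel growth factor ANG-1 and the transcription factor C-JUN at 0.12 each, with a median of 0.35. For GFAP they were MUC2, a mucin, at 0.16, the lysosomal protease CTSS at 0.18 and the signal transducer SMAD5 at 0.21, with a median of 0.48. For VIM they were CHID1 at 0.12, the splicing factor SRSF3 at 0.14 and the calcium-binding protein CIB1 at 0.14, with a median of 0.38. CTSS shared with GFAP the low value on control replicate 1, at 0.83, and a high one on control replicate 2, at 1.68, beside 1.64, 1.67 and 1.74 in hypoxia. MUC2, SMAD5 and MGLUR6 were dim, with levels from -7.40 to -6.15, from -6.63 to -4.92 and from -6.03 to -5.44. The 7 arrays are few for such a ranking, and it describes these arrays only.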

How the data were processed

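Cy3-labelled cRNA of the hypothalamus of 7 sheep fetuses was read on 1-colour Agilent arrays. Per the file headers, the authors used Agilent Feature Extraction 10.1.1.1 to turn the scans into processed intensity values, subtracting a background surface and removing spatial trends. The deposited log2 value table equals the log2 of the processed intensity within 5e-09, unscaled between arrays, and served as an alternative. Flags for outliers, saturation and signal well above background were taken as deposited.

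Levels are log2 processed intensities minus each array's 75th percentile over non-control spots. Control spots and outliers (62 values) were removed before repeat spots of a probe were averaged. The test took the 12712 of 15008 probes with signal well above background on 3 or more of the 7 arrays. It was limma 3.58.1 under R 4.3.3 (lmFit and eBayes, 2-sided), hypoxia minus control, with Benjamini-Hochberg adjustment over all tested probes at 0.05. The procedure was tested on simulated data with 200 changed probes in each set. It recovered 20.9% of 1.5-fold, 60.9% of 2-fold and 88.2% of 4-fold changes, and 5.44% of its calls were false. Changes of the size seen in the 5 genes could therefore often be missed. The number of arrays limits the precision.

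Sample titles gave the groups and replicate numbers. A gene is its brightest probe, and all probes of the 5 genes are given. Other genes were named by a rule, up to 4 per list with the smallest p plus fixed defining markers and the 3 genes closest in pattern to each of the 5. A few genes are not reported here and were left out of the list counts and of the ranking by pattern. Names come from the files, some of them older names, and from the RefSeq table of the ARS-UI_Ramb_v3.0 assembly. No coordinates are given because the files name no build. The 5 genes and the lists were chosen with earlier results of these data known. Alternatives were 3 other scalings, the deposited values, normexp background correction with an offset of 50, other filters, each control slide alone, slide as a random block, the replicate number as a block, 1 array left out at a time, array weights, a robust prior with a trend and the mean of a gene's probes.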

Additional observations from a re-analysis of the deposited data

Results flagged for a closer look

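In 5 of 74 sets of 4 control values (the 12 probes of the 5 genes and the genes of the lists), 1 control lay far from the remaining 3, where about 3.7 would do so by chance. None of the 12 probes of the 5 genes was among them. The level of NEFH was -2.43 on control replicate 1. DCN, a proteoglycan of connective tissue, was at 1.23 on control replicate 2. COL6A1, a collagen that was well above background on 4 of 7 arrays, was at -4.00 on control replicate 4. PTGDS, a prostaglandin synthase of the meninges, was at 6.36 on control replicate 2. The level of PRL, the pituitary hormone prolactin, was 1.13 on control replicate 4.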

How the results depend on the processing

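The differences of the 5 genes kept their direction under the 14 processing alternatives and the 7 fits without 1 array, and no probe of theirs passed the adjusted threshold in any. Over the alternatives that keep all arrays or use 1 control slide, SLC1A2 ran from 0.66 to 0.87, GJA1 from 0.38 to 0.55, SLC4A4 from 0.34 to 0.49, GFAP from 0.42 to 0.59 and VIM from -0.53 to -0.42, and without 1 array, in the same order, from 0.60 to 0.97, from 0.38 to 0.55, from 0.30 to 0.54, from 0.31 to 0.75 and from -0.58 to -0.42. At an unadjusted p under 0.05 there were 5 to 9 of the 12 probes over all alternatives. The probes with groups that do not overlap numbered 3 with the deposited values (7.87% of all tested probes) and 4 with normexp (13.8% of all). They numbered 8 against control slide 2 alone (37.1% of all) or slide 3 alone (32.8% of all). Without 1 array they numbered 5 to 8, with 8 without control replicate 4. In these fits 21.4% to 26.2% of all tested probes had such groups. Over all probes the count at an adjusted p under 0.05 was 0 with quantile normalization, with the percentile over probes seen on all arrays and without a filter, 10 with the deposited values or with normexp, 25 with probes seen on all 7 arrays, 57 with a trended and robust prior, 4 with array weights, 232 against slide 2 alone and 4 against slide 3 alone. It ran from 0 to 6 without 1 array, at 0 without control replicate 1, 3 or 4 and 6 without control replicate 2. The count at an unadjusted p under 0.05 was 981 with the deposited values and from 1329 to 2192 under the other alternatives, so that none of these zeros means an absence of small p. The cause of these changes was not tested. The groups share the replicate numbers 1 to 3. Deviations from the group means correlated at 0.12, 0.09 and 0.11 between arrays of the same number, so the numbers were not taken to pair the fetuses, though each of these arrays correlated best with its own number. With the replicate block 0 probes passed the adjusted threshold. SLC1A2, GJA1, SLC4A4, GFAP and VIM stood at 0.79, 0.55, 0.45, 0.49 and -0.42 with the block, the same as without control replicate 4, which has no partner. Slide as a random block gave an estimated correlation of -0.03 and made no allowance for slides. The levels of 2 arrays on 1 slide correlated at 0.985 to 0.990, and those of controls on different slides at 0.983 to 0.984. For a hypoxia and a control array the correlation was 0.978 to 0.988.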
